A study of Homo sapiens with 4 samples.

Results

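Transcripts of 7 genes that handle carbon dioxide, bicarbonate, lactate and protons were followed in A375 cells, an established human melanoma line. The genes were chosen by name, with earlier results of these data known. They are the carbonic anhydrase genes CA9, CA12 and CA2 and the lactate carrier genes SLC16A1 and SLC16A3. The others are BSG, the gene of the carriers' partner protein, and the bicarbonate carrier gene SLC4A7. All 7 were among the 28395 rows of the deposited count table. Cells labelled as wild type were cultured for 6 h with 0.01% olive oil or with 0.01% ozonated olive oil, in DMEM with serum under an atmosphere of air and CO2. Ozone adds across the double bonds of the unsaturated fatty acids of an oil, so that the ozonated oil carries ozonides and peroxides. Each oil had 2 libraries, whose titles number them 1 and 2, and no untreated group enters the comparison. What the numbers stand for (a culture, a day, a preparation) is not said in the labels. The p-values therefore weigh the oil difference only against the spread among these libraries, and part of that spread may be technical.

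Cells that break down much glucose to lactate must export acid. The proton-coupled carriers MCT1 (gene SLC16A1) and MCT4 (gene SLC16A3) move lactate out together with a proton, and both need the membrane glycoprotein basigin (gene BSG, also called CD147) to reach the cell surface. Carbonic anhydrases interconvert carbon dioxide with bicarbonate and a proton: the products of CA9 and CA12 do so on the outer face of the plasma membrane, and that of CA2 in the cytosol. Sodium-coupled bicarbonate import through NBCn1 (gene SLC4A7) buffers the cytosol. CA9 is a standard target gene of the hypoxia-inducible factor HIF, and SLC16A3 is another gene that HIF is known to raise.

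The sequence that HIF recognises has the core ACGTG, whose first base may also be a guanine (GCGTG). The upstream sequences that hold the first form are shown here because CA9 and SLC16A3 are known HIF targets, and BSG is another of the genes that holds it. In all, 11 windows of 250 bases directly before an annotated RefSeq start (GRCh38.p14) were examined, for 5 of the 7 genes. These were 1 each for CA9 and CA12, 5 for SLC16A3, and 2 each for BSG and SLC4A7. SLC16A1 and CA2 were not searched. Both strands were searched, and CACGTG counts as a match on each strand. ACGTG occurred in 3 windows, 1 each of CA9, SLC16A3 and BSG. Capitals mark both forms and their reverse complements, and each line reads 5′ to 3′ on the strand of the gene, which is the plus strand for all of them.
CA9, chr9:35673678-35673927: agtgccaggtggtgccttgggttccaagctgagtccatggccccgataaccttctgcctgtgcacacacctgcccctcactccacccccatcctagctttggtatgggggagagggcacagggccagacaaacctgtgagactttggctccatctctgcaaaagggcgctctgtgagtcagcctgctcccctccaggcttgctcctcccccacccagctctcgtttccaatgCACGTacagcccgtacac
SLC16A3, chr17:82228792-82229041: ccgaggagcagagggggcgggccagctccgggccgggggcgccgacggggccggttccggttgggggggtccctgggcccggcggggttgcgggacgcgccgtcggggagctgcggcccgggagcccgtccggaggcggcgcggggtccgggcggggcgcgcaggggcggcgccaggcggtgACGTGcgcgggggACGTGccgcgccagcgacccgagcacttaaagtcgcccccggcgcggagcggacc
BSG, chr19:572346-572595: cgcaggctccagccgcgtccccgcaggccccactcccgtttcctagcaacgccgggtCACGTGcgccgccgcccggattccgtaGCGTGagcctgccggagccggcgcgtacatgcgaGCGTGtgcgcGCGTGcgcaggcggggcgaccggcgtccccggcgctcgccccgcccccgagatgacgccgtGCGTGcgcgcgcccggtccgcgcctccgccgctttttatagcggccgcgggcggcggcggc
The single match of CA9 lay on the opposite strand, 18 to 14 bases before the start. In SLC16A3 the matches began 68 and 55 bases before the start. BSG held the palindrome CACGTG, with its first base 193 bases before the start, and 4 copies of GCGTG. The CA12 window had GCGTG once, and of the SLC4A7 windows 1 held it. Of the other SLC16A3 windows, 1 held GCGTG 3 times and another held it once. Either form was thus found in 7 of the 11 windows. Over 35116 such windows in the genome, 18.5% held ACGTG and 43.2% held either form, so a match is common. It is a description of the letters and not of a bound site.

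Library totals lay between 22245807 and 27772480 counts. Levels are given as CPM (counts relative to the library total) on library sizes scaled by the trimmed mean of M-values (TMM), and 3 counts, the floor used for a gene with none, correspond to 0.106 to 0.139 CPM. Of the 7 genes, 6 passed the filter on low counts and CA2 did not. Of 9 markers of the melanocyte lineage and melanoma, SOX10 stood at 278 to 361 CPM and MITF at 24.2 to 36.0 CPM. S100B lay at 3.32 to 9.01 CPM and S100A1 at 4.81 to 13.4 CPM. The pigment genes PMEL, MLANA, TYRP1 and DCT lay at 0.223 to 1.35 CPM, and TYR was at 0 in all 4 libraries. Fibroblast markers summed to 3.84 to 5.70 CPM and endothelial markers to 2.19 to 3.36 CPM. Keratinocyte markers summed to 87.6 to 98.6 CPM, most of it KRT10.

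Carbonic anhydrase 9 gave the widest spread of the 7 genes. CA9 (ENSG00000107159, chromosome 9, 35673928 to 35681159, GRCh38.p14) was counted at 35.1 CPM in olive oil library 1, 1.04 CPM in olive oil library 2, 89.0 CPM in ozonated library 1 and 8.23 CPM in ozonated library 2. Within either number the ozonated library was the higher one, but olive oil library 1 lay above ozonated library 2, so the groups overlapped. The olive oil mean was 18.1 ± 24.1 CPM (SD, n = 2). The mean of the ozonated libraries was 48.6 ± 57.1 CPM (SD, n = 2).

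Seen within a number, CA9 was 2.53-fold higher with the ozonated oil in number 1 (95% interval 2.35 to 2.74) and 7.93-fold higher in number 2 (5.30 to 12.3). These intervals are exact conditional binomial ones. They reflect counting error alone, since each compares 1 library with 1. The labels name no molecular identifiers, so repeated copies of a molecule may be among the counts. On the linear scale the order was the other way round, with a gain of 53.9 CPM in number 1 and of 7.19 CPM in number 2. The larger ratio in number 2 stood on a base of 28 counts in olive oil library 2 (1.04 CPM, exact Poisson 95% interval 0.690 to 1.501). With 1 library per oil within a number, the difference between the ratios could not be tested beyond counting error.

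The replicate number separated the CA9 libraries further than the oil did. Number 1 was 33.8-fold above number 2 with olive oil (95% interval 23.3 to 51.2, counting error only) and 10.8-fold above it with the ozonated oil (9.28 to 12.7). A fall of at least 2-fold from number 1 to number 2 with both oils was found for 3.62% of the 14841 tested genes, and CA9 was among them. Only 18 of the 14841, CA9 included, had a mean log2 difference between the numbers as low as its -4.20. At the same time CA9 was 1 of the 50 tested genes (0.337%) that were at least 2-fold higher with the ozonated oil within both numbers, and 10 genes including it had a mean oil difference of 2.12 on the log2 scale or more. These ranks describe 4 libraries and carry no test. Because the cells were measured in bulk, more CA9 RNA per cell and more cells that express it cannot be told apart.

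By edgeR's quasi-likelihood test over all 4 libraries, the value of CA9 was 1.43 ± 1.65 (SE) on the log2 scale, and it did not pass (adjusted p = 0.9998, Benjamini-Hochberg over 14841 genes). That fit counts the difference between the numbers as spread within an oil, and the call turned when the number was a term of the model, as given with the processing alternatives. Without ozonated library 1 the fitted value was -1.14, and without olive oil library 1 it was 5.54, since the numbers are then unequal between the oils. Without olive oil library 2 it was 0.47, and without ozonated library 2 it was 2.30. Of the leukocyte markers, CD3E was at 0, PTPRC at 0 to 0.170 CPM, and CD68, which encodes a lysosomal membrane protein, at 66.6 and 28.4 CPM with olive oil and 81.6 and 41.7 CPM with the ozonated oil. CD68 thus ranked the libraries as CA9 did, and its part in the result was not tested. ARHGEF39, which GENCODE 29 places across the 5′ end of CA9 on the opposite strand, had 423 and 408 counts with olive oil. With the ozonated oil it had 309 and 227, so its counts did not follow the order of those of CA9. CA9 itself had 28 counts in olive oil library 2. The strand setting of the counting is not given, so reads of the overlap may not be separated. Their share in the counts of CA9 was not tested.

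**Figure D1:**
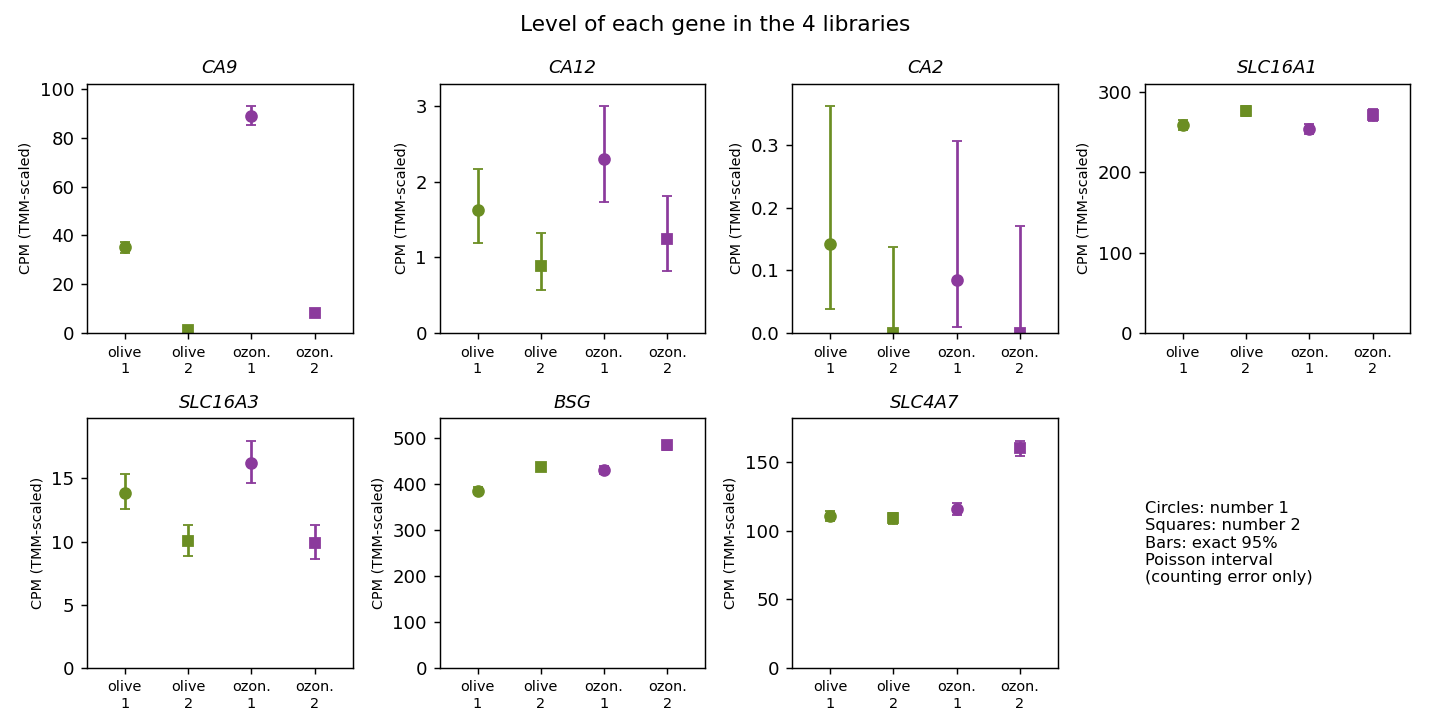
Level of each of the 7 genes in the 4 libraries, as CPM on TMM-scaled library sizes on a linear axis from 0, with exact 95% Poisson intervals for counting error. CA9 ran from 1.04 to 89.0 CPM, while SLC16A1 stayed between 254 and 276 CPM.

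CA12 (ENSG00000074410, chromosome 15, 63321378 to 63381846) was a sparse transcript that ranked the 4 libraries in the same order as CA9. It had 1.63 and 0.890 CPM in olive oil libraries 1 and 2, and 2.30 and 1.25 CPM in ozonated libraries 1 and 2, from 46, 24, 54 and 27 counts. Olive oil library 1 again lay above ozonated library 2. The ratio of ozonated to olive oil was 1.41 in number 1 (95% interval 0.934 to 2.14) and 1.40 in number 2 (0.779 to 2.54), and at this depth neither interval leaves out a ratio of 1. Between the numbers the ratio was 1.83 with olive oil (1.09 to 3.13) and 1.84 with the ozonated oil (1.14 to 3.04). The fitted log2 fold change between the oils was 0.49 ± 0.54 (SE), not past the test (edgeR, adjusted p = 0.9998), and -0.01 without ozonated library 1. It was 0.13 without olive oil library 2.

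CA2 (ENSG00000104267, chromosome 8), the cytosolic enzyme, had 4 counts in olive oil library 1, 2 counts in ozonated library 1 and 0 in both libraries numbered 2. By the floor of 3 counts, a count of 0 allows up to 0.111 CPM in olive oil library 2 and 0.139 CPM in ozonated library 2. The two-sided exact Poisson intervals drawn in the plot of levels are wider and end at 0.137 and 0.171 CPM. CA2 was not tested, and no fold is given.

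The lactate carriers differed from each other in level and in spread. SLC16A1 (ENSG00000155380, chromosome 1, 112911847 to 112956196), which encodes MCT1, had 259 and 276 CPM in olive oil libraries 1 and 2 and 254 and 271 CPM in ozonated libraries 1 and 2. The 4 values lay close together, and number 2 was slightly higher with either oil. Ozonated over olive oil came to 0.979 in number 1 (95% interval 0.946 to 1.01) and 0.983 in number 2 (0.950 to 1.02). The fitted log2 fold change was -0.03 ± 0.11 (SE; edgeR, adjusted p = 0.9998), and 0.02 without olive oil library 2 or without ozonated library 1. In the table of tested genes, 89.9% had a mean oil difference at least as large in either direction.

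SLC16A3 (ENSG00000141526, chromosome 17, 82217934 to 82240086), which encodes MCT4, had 13.9 and 10.1 CPM in olive oil libraries 1 and 2 and 16.2 and 9.89 CPM in ozonated libraries 1 and 2. Here the libraries sorted by number: both libraries numbered 1 lay above both numbered 2. Ozonated over olive oil was 1.17 in number 1 (95% interval 1.01 to 1.35) and 0.984 in number 2 (0.819 to 1.18), so the direction was not shared. Number 1 was above number 2 by 1.38-fold with olive oil (1.18 to 1.62) and by 1.64-fold with the ozonated oil (1.39 to 1.95). The fitted value between the oils was 0.13 ± 0.32 (SE; edgeR, adjusted p = 0.9998), which became -0.08 without olive oil library 2 and -0.27 without ozonated library 1. CSNK1D, on the opposite strand and overlapping the GENCODE 29 model of SLC16A3, had 2846 to 4080 counts against 214 to 392 for SLC16A3. The strand setting of the counting is not given, so reads of the overlap may not be separated.

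The partner protein's gene BSG (ENSG00000172270, chromosome 19, 571283 to 583493) had 386 and 437 CPM in olive oil libraries 1 and 2 and 430.1 and 485 CPM in ozonated libraries 1 and 2. Olive oil library 2 lay just above ozonated library 1, so the oils overlapped. Within the numbers the ratio of the oils was nearly the same, 1.12 in number 1 (95% interval 1.09 to 1.15) and 1.11 in number 2 (1.08 to 1.14). Number 2 exceeded number 1 in the same measure with both oils, by 0.18 and 0.17 on the log2 scale. The fitted log2 fold change between the oils was 0.15 ± 0.13 (SE; edgeR, adjusted p = 0.9998), and it was 0.06 without olive oil library 1 or without ozonated library 2. Without olive oil library 2 it was 0.25, and without ozonated library 1 it was 0.24.

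SLC4A7 (ENSG00000033867, chromosome 3, 27372723 to 27484384), the gene of the bicarbonate importer NBCn1, had 111 and 109 CPM in olive oil libraries 1 and 2 and 116 and 160.2 CPM in ozonated libraries 1 and 2. Ozonated library 2 stood above the other 3, which lay within a few CPM of each other. Both ozonated libraries exceeded both olive oil libraries, which held for 15.3% of all tested genes and for no other gene of the 6. The ratio of the oils was 1.04 in number 1 (95% interval 0.992 to 1.10) and 1.47 in number 2 (1.40 to 1.54), or 4.89 and 50.9 CPM. The fitted log2 fold change was 0.33 ± 0.18 (SE; edgeR, adjusted p = 0.9998). It became 0.07 without ozonated library 2 and 0.54 without ozonated library 1, so ozonated library 2 set most of its size.

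**Figure D2:**
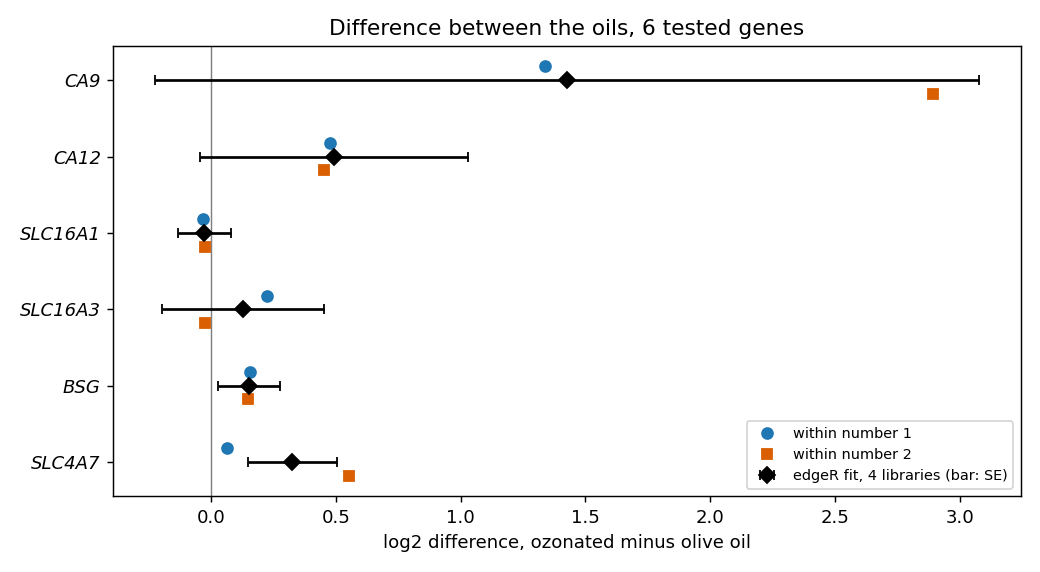
Log2 difference between the oils for the 6 tested genes: diamonds give the edgeR value over 4 libraries with its SE, circles and squares the differences within numbers 1 and 2. CA9 had 1.34 and 2.89 within the numbers, BSG 0.16 and 0.15, and SLC16A1 -0.03 and -0.02.

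Across the 6 tested genes, none passed edgeR's quasi-likelihood test between the oils, where 0% of all 14841 tested genes passed (0 genes, smallest adjusted p = 0.748). None of the 6 had an unadjusted p under 0.05, against 3.84% of all tested genes (570). Fitted on the oil alone, DESeq2 called 59 genes and the edgeR exact test 35, none of them among the 6. A fit that also takes the replicate number as a term did call CA9 and none of the other 5, and is given with the processing alternatives. With the ozonated oil, 4 of the 6 (CA9, CA12, BSG and SLC4A7) were higher within both numbers, against 31.6% of all tested genes, and SLC16A1 was lower within both, against 31.1%. SLC16A3 went opposite ways, as did 37.3% of the tested genes. The median log2 fold change of the 6 was 0.24 and that of all tested genes 0.00051. For CA12 in both numbers and SLC4A7 in number 1, the interval for counting error included a ratio of 1. The intervals of CA9, of BSG and of SLC4A7 in number 2 did not. So few genes, chosen by name, show no trend of the set. CA9, CA12 and SLC16A3 were lower in number 2 than in number 1 with both oils, which held for 36.4% of all tested genes. SLC16A1 and BSG were higher in number 2 with both oils, as were 36.9% of them. A two-sided exact permutation test of a single value cannot go below p = 0.333 with 2 libraries per oil.

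**Figure D3:**
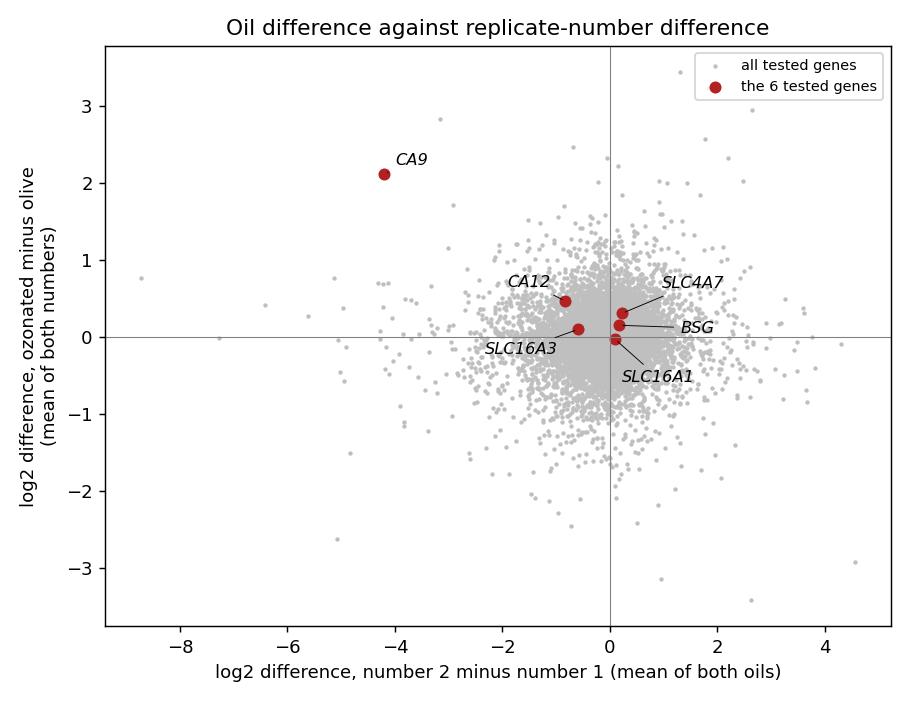
Mean log2 difference between the oils against mean log2 difference between the replicate numbers, for all 14841 tested genes (grey) and the 6 tested genes of the set (red). CA9 lies far from the cloud on both axes, at 2.12 and -4.20, and the other 5 lie within it.

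Levels of different genes are compared here only per length, as CPM per kilobase of the longest principal transcript in GENCODE 29. BSG stood highest, at 195 to 245 CPM per kilobase, above SLC16A1 at 58.0 to 63.1. CA9 ranged from 0.642 to 55.0 and so covered the whole range of SLC4A7 (14.1 to 20.7) and of SLC16A3 (2.05 to 3.36). CA12 followed at 0.139 to 0.358 and CA2 at 0 to 0.0825 CPM per kilobase. Apart from CA9, no neighbours in this order overlapped. The median over 13192 tested genes with such a length was 8.21, so BSG, SLC16A1, SLC4A7 and, by its mean, CA9 lay above it, and SLC16A3 and CA12 below.

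Ratios within a library do not depend on its scaling. SLC16A1 exceeded SLC16A3 per length by 20.6-fold and 30.3-fold in olive oil libraries 1 and 2, and by 17.2-fold and 30.3-fold in ozonated libraries 1 and 2. Of this pair, the MCT1 transcript was thus the more abundant in every library, by a wider margin in the libraries numbered 2. Other lactate carriers were not compared in this way. BSG exceeded SLC16A1 per length by 3.29-fold and 3.51-fold with olive oil and by 3.75-fold and 3.95-fold with the ozonated oil. CA9 exceeded CA12 per length by 85.5-fold and 4.62-fold with olive oil and by 154-fold and 26.1-fold with the ozonated oil.

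The genes most like CA9 across the 4 libraries were sought by Euclidean distance of centred log2 CPM among 13197 genes. The nearest were HEPHL1, PWWP3B and TNFSF14, at distances of 1.46, 1.47 and 1.48, where the spread of CA9 itself (root sum of squares) was 4.77. HEPHL1 had 1.49 and 0 CPM with olive oil and 1.91 and 0.601 CPM with the ozonated oil. All of them were at 0 in olive oil library 2 and at most at 2.30 CPM elsewhere, so these are sparse neighbours at some distance. The other tested genes fell below the chosen threshold of 1 (root sum of squares from 0.0977 to 0.949), so their neighbours are not given.

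No gene of the wider machinery of pH control and lactate transport passed the test between the oils. Of 52 further genes listed, all in the table, 32 were tested, and 0 passed edgeR's test between the oils (0 at an unadjusted p under 0.05). Of the 32, 9 were higher with the ozonated oil within both numbers, 8 lower within both, and 15 went opposite ways. Over all tested genes these shares were 31.6%, 31.1% and 37.3%. Their median log2 fold change was 0.03, with -0.06 within number 1 and 0.10 within number 2.

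Among the other carbonic anhydrases, 5 of 12 were tested. CA5B, a mitochondrial enzyme and the most counted of them, had 4.99 and 7.86 CPM with olive oil and 6.89 and 9.48 CPM with the ozonated oil. CA3, a cytosolic enzyme of muscle, had the smallest p, with 0.814 and 1.001 CPM against 0.638 and 0.324 CPM. That is a log2 fold change of -0.90 ± 0.56 (SE), not past the test.

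Of the other lactate carriers and partner proteins, 5 of 6 were tested. NPTN, a relative of basigin, was the most counted, with 119 and 115 CPM against 129 and 112 CPM. SLC5A12, a sodium-coupled lactate carrier, had the smallest p but only 0.177 to 0.723 CPM. Among other SLC16 carriers, 7 of 10 were tested, with SLC16A5 at 20.2 and 27.0 CPM against 21.6 and 26.6 CPM, and SLC16A9 with a value of -0.52 ± 0.69 (SE) at under 1 CPM.

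Of the other SLC4 carriers, 5 of 9 were tested, 3 of them lower within both numbers and none higher within both. Over all tested genes 31.1% were lower within both and 31.6% higher within both, and so few genes show no trend of the group. The anion exchanger gene SLC4A2 was the most counted, at 257 and 223 CPM with olive oil and 275 and 217 CPM with the ozonated oil, a split by number. SLC4A8, a sodium-driven bicarbonate exchanger gene, had 8.42 and 7.83 CPM against 6.29 and 6.38 CPM, or a log2 fold change of -0.36 ± 0.22 (SE), not past the test. Both of its ozonated libraries lay below both olive oil libraries, as for 15.7% of all tested genes.

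In the proton exchange group 10 of 15 were tested, 5 of them higher within both numbers and 3 lower within both. The shares over all tested genes were 31.6% and 31.1%, and so few genes show no trend of the group. SLC9A5, a sodium-proton exchanger gene, had the smallest p of all 32, with 10.3 and 10.3 CPM with olive oil and 13.2 and 16.2 CPM with the ozonated oil. Its log2 fold change was 0.51 ± 0.20 (SE; edgeR, unadjusted p = 0.0558, adjusted p = 0.9998). CHP1, a calcium-binding partner of such exchangers and the most counted gene here, had 71.9 and 80.1 CPM against 78.0 and 90.9 CPM. A p that misses the threshold in 4 libraries does not show that these genes were alike under the oils.

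**Figure D4:**
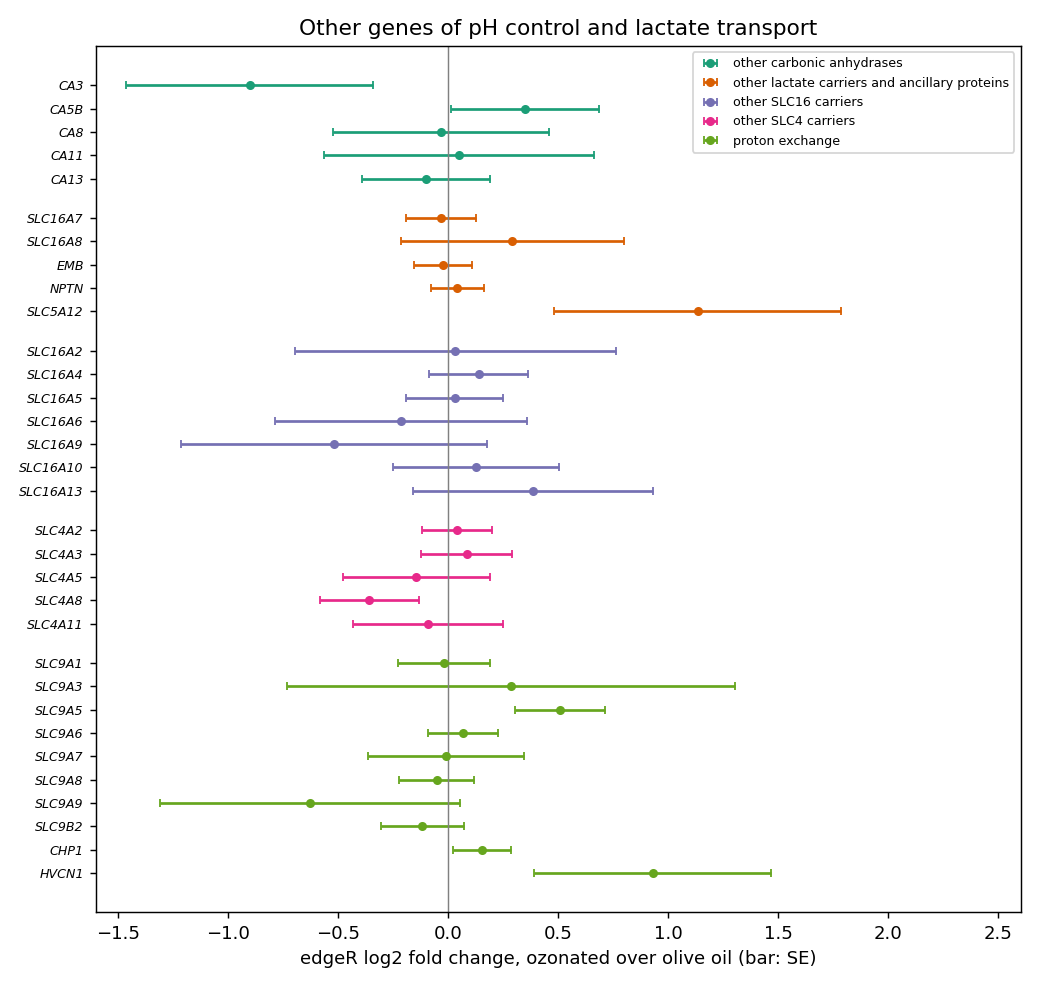
Log2 fold change of the 32 other tested genes of pH control and lactate transport (edgeR over 4 libraries), with bars of 1 SE, coloured by group. The values scatter on both sides of 0 in each group, around a median of 0.03.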

How the data were processed

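The authors deposited raw counts per gene, 1 column per library, with no scaling. Per the submitters' processing notes, which assign no step to a tool, edgeR, HISAT2 2.1.0 and StringTie 1.3.4d were used with hg38, beside bedtools 2.27.1, SAMtools 1.9, bcl2fastq and FastQC 0.11.7. Counting tool and annotation: not given in the sources used here. Per the labels' protocols the library kit was directional. Rows without a symbol (617, 0.0423% to 0.0494% of the counts) have gene IDs and were kept.

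The fit used R 4.3.3 and edgeR 4.0.16: filterByExpr with the group, TMM (factors 0.972 to 1.02), the quasi-likelihood test over all genes, two-sided, Benjamini-Hochberg adjustment, threshold 0.05, no block. SEs came from the fold change and its F statistic. Differences within a number are log2 CPM with a prior count of 2 and carry no test. Genes named are the 7, from each further group the most counted and the one of smallest p, the 3 nearest to any of the 7 whose root sum of squares reached 1, and a few markers and overlapping genes. Members and lists were chosen with earlier results of these data known. Alternatives were other scalings, filters and prior counts, a block for the replicate number, the edgeR exact test, DESeq2 1.42.0, limma-voom (limma 3.58.1), and each library left out.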

Additional observations from a re-analysis of the deposited data

How the results depend on the processing

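Between the oils 0 genes passed in the main edgeR fit and with every other scaling or filter and limma-voom, against 59 with DESeq2 (39 higher, 20 lower), 35 with the edgeR exact test (22 and 13) and 0 to 4 with 1 library left out. With the replicate number as a block edgeR called 841 genes (5.67% of those tested; 468 higher, 373 lower), CA9 among them (log2 fold change 1.74, adjusted p = 7.03e-05), and none of the other 5. SLC4A7 then had an adjusted p of 0.0924 and BSG one of 0.206. The labels do not say that equal numbers share a source. With 4 libraries, the block fit leaves very little of the data to estimate the spread of each gene. It also takes the oil difference to be the same in both numbers, where CA9 had log2 differences of 1.34 and 2.89. Over 14841 genes the deviations of same-numbered libraries correlated with r = 0.672. Of 78 values of the 6 genes under alternatives, 71 kept their direction and side of the threshold. None changed sign among the 54 that kept all libraries. With 1 library left out, where oil and number are mixed, 6 changed sign, and the ranges were -1.14 to 5.54 for CA9, -0.014 to 0.99 for CA12, -0.076 to 0.020 for SLC16A1 and -0.27 to 0.44 for SLC16A3. BSG (0.06 to 0.25) and SLC4A7 (0.07 to 0.54) kept their sign. For CA12 DESeq2 gave no adjusted p. The count of 4 genes higher within both numbers held under each scaling and prior count tried. The median of the wider list had the value -0.01 with no scaling beyond the total, and -0.03 to 0.11 with 1 library left out. Depth limits CA12 and CA2, whose counts were at most 54 and 4.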
